A study of Homo sapiens with 12 samples.

Results

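The genes described here are the expressed LINC genes of MG63 cells, an established human osteosarcoma line. A LINC gene carries a numbered symbol that was given to a long intergenic non-coding RNA before anything was known of its role. Members were all rows of the raw count table whose symbol is LINC followed only by digits and which had at least 10 counts in at least 3 of the 12 libraries. This took 191 of the 985 LINC rows, in a table of 50868 genes. Of the other rows, 455 had 0 counts in every library and 339 had some counts but missed the rule. Members were thus chosen by their raw counts over all 4 groups and by no contrast. A member that reached the minimum only in the group where it was high nevertheless had to differ between groups: 31 members reached it in just 3 to 5 libraries and 78 in all 12. LINC00824, LINC00862, LINC01140, LINC01173 and LINC01176 had 10 counts in anticarin-beta libraries alone, and LINC00327 and LINC00959 in vehicle libraries alone. The counts of changed members below are therefore given as descriptions beside the same counts over all genes. At the edge of the rule, LINC00161, LINC00327 and LINC00487 had a third-highest count of 10, and LINC00102, LINC00473 and LINC00520 missed with a third-highest count of 9.

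Long non-coding RNAs are transcribed by RNA polymerase II and most are spliced and polyadenylated, but they carry no long open reading frame. Many are unstable and are present at far lower levels than messenger RNAs, because the nuclear exosome degrades them and the Integrator complex ends their transcription early. A LINC gene often starts back to back with a protein-coding gene, from a shared stretch of CpG-rich promoter DNA, and some LINC transcripts have since been found to encode short peptides or to be the untranslated tail of a neighbouring gene.

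The compound experiment compared cells given 1 µM anticarin-beta with cells given its vehicle, both harvested at 18 hours. For the siRNA experiment, MG63 cells received Allstar control siRNA or an siRNA specific for CCT4, which encodes part of the cytosolic folding machine for actin and tubulin, and RNA was taken 2 days later. All 4 groups were of MG63 grown in the same medium with serum, a single line, and each had 3 libraries. Whether replicates are separate cultures is not in the labels, so a p-value reflects the scatter of these libraries, which may be technical. Library totals ran from 13393750 to 17492095 counts, and 3 counts in 1 library equal 0.160 to 0.277 CPM (counts scaled to a common library size with TMM factors, as all levels here). That limit was 0.251 to 0.277 CPM with anticarin-beta and 0.160 to 0.196 CPM in the other groups. COL1A1 (500.5 to 5240 CPM) and VIM (2074 to 3811 CPM) fitted the label of a mesenchymal line. CD3E had 0 counts, and EPCAM and CDH1 stayed at or below 0.335 CPM. Other mesenchymal and osteoblast markers were lower, with RUNX2 at 2.03 to 33.8 CPM and THY1 at 12.7 to 93.3 CPM. CDH5 of endothelium was 0.444 to 4.94 CPM and PTPRC of blood cells 0 to 2.13 CPM. KRT8 and KRT18 were present in all libraries, at 37.5 to 126 CPM, as were CD14 (6.39 to 15.7 CPM) and PECAM1 (1.66 to 14.4 CPM). The control groups of the experiments were not alike, since COL1A1 averaged 3777 CPM with vehicle and 533 CPM with control siRNA; transfection, time and experiment cannot be told apart there. CCT4 mRNA was 186, 160 and 185 CPM with control siRNA and 201, 199.6 and 216 CPM in the libraries labelled CCT4 siRNA (log2 fold change 0.22 ± 0.09 SE, adjusted p = 0.13). A lower CCT4 mRNA level was thus not found, and directions in that comparison are those of libraries carrying this label. In bulk RNA, fewer cells of a type and less RNA per cell cannot be told apart.

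Promoter windows from RefSeq (GRCh38.p14, 250 bases before to 50 after the start) were found for 151 of the 191 members. The windows of 6 genes on which the results turn are printed 5′ to 3′ on the strand of the gene. The first pair belongs to genes that rose with anticarin-beta and holds AP-1 sites (TGANTCA, the site of JUN and FOS proteins), in capitals. LINC01173 lies at chr2:234682418-234682717 on the plus strand and has 1 such site. LINC00152 lies at chr2:87455177-87455476 on the plus strand and has 2, although its start in GENCODE differs from the RefSeq start by 646 bases.
LINC01173: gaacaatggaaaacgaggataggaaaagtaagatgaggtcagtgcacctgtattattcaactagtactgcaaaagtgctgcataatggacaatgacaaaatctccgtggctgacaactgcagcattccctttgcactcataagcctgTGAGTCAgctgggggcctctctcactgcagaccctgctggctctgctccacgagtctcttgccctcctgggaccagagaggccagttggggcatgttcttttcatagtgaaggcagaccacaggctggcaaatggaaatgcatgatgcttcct
LINC00152: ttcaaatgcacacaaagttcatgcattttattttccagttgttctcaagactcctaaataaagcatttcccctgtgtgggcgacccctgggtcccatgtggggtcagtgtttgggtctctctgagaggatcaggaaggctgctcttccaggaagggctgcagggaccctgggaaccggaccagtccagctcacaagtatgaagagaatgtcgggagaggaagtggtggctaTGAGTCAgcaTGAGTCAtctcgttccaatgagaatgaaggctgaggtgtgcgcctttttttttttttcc
The window of LINC00641, 1 of 2 members that rose in both experiments, lies at chr14:21206851-21207150 on the minus strand; it is AT-rich, with 39% G or C and 2 CpG dinucleotides, and holds no marked site.
LINC00641: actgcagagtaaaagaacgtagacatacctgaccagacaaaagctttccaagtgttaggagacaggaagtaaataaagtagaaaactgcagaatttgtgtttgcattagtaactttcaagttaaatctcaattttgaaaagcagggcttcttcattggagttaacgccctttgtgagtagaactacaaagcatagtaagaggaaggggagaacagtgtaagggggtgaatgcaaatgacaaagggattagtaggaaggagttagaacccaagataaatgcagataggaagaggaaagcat
The last 3 windows belong to genes that fell with anticarin-beta and start back to back with a protein-coding gene; capitals mark each CpG. They lie at chr22:31346509-31346808 on the plus strand (LINC01521), at chr21:44939864-44940163 on the minus strand (LINC01547) and at chr1:37474394-37474693 on the minus strand (LINC01137), and hold 22, 42 and 47 CpG.
LINC01521: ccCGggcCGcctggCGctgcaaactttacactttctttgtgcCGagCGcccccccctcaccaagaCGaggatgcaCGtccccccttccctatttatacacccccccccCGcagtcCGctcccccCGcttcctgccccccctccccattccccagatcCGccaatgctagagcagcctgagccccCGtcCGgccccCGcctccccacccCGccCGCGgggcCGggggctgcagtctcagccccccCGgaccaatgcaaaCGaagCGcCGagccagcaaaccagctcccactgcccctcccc
LINC01547: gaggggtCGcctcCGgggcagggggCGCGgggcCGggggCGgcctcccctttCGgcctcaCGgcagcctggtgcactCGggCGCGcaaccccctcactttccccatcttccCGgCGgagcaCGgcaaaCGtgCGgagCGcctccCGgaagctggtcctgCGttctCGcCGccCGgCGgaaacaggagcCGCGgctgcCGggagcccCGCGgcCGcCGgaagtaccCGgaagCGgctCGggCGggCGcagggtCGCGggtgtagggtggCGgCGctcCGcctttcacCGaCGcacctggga
LINC01137: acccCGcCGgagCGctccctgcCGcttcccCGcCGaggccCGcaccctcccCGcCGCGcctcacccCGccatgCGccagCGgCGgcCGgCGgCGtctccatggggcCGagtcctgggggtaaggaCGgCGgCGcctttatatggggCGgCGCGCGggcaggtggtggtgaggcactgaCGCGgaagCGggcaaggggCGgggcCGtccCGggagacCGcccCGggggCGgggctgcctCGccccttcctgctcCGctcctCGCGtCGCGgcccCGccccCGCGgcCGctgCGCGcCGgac

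As a group the members were scarce. Their mean level over the 12 libraries had a median of 1.89 CPM with quartiles of 0.912 and 4.66 CPM; 53 members averaged under 1 CPM, 118 between 1 and 10 CPM and 20 over 10 CPM. Together they held 0.123 to 0.143% of the counts of a vehicle library, 0.134 to 0.136% with anticarin-beta, 0.155 to 0.165% with control siRNA and 0.137 to 0.140% in the libraries labelled CCT4 siRNA. A single gene, LINC00657 (now NORAD, a cytoplasmic RNA that binds PUMILIO proteins), made up 30.3 to 32.5% of the member counts with anticarin-beta and 33.9 to 39.5% with vehicle, 2 ranges that do not overlap. Such a share also depends on the other members. LINC00657 itself was not called with anticarin-beta (log2 fold change 0.19, described below). In the control and CCT4 siRNA libraries its share was 42.7 to 44.9% and 41.6 to 43.4%. Per kilobase of exon NORAD also stood first, at 102 CPM per kb, followed by LINC00839 (16.7), LINC01420 (16.3) and LINC00493 (14.7). Of the members, 189 were found in GENCODE 29, where 138 are of the type lincRNA and 11 are by now annotated as protein-coding. Exons of 74 members overlap an exon of another gene, 44 of them on the opposite strand and 30 on the same strand. No source used here tells whether counting was by strand, so values of these 74 are uncertain. Among the genes with values below, LINC00094, LINC00116, LINC00511, LINC00662, LINC00689, LINC00704, LINC00880, LINC00884, LINC00968, LINC01116, LINC01128, LINC01144, LINC01232 and LINC01420 overlap on the opposite strand. LINC00152, LINC00472, LINC00493, LINC00707, LINC00941, LINC00969, LINC01011, LINC01296, LINC01578 and LINC01619 overlap on the same strand.

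With anticarin-beta, LINC genes changed in both directions. Of 187 members with enough counts to be tested, 54 were higher, 62 were lower and 71 were not called at an adjusted p under 0.05 (edgeR's quasi-likelihood test with Benjamini-Hochberg adjustment over all 17717 genes tested, which gave every adjusted p here). That is 62% of the members, where 73% of all genes tested were called, 34.9% of them higher and 38% lower. The share followed the level: it was 53.1% of members against 53.8% of all genes under 1 CPM, 63.6% against 69.1% from 1 to 10 CPM, and 75% against 79.8% over 10 CPM. Past 2-fold were 38 of the higher and 56 of the lower members, together 94 of 187 tested, beside 8101 of 17717 genes. Over 10 CPM it was 8 of 20 members beside 3924 of 9839 genes. The median log2 fold change was −0.06 for the members and −0.06 for all genes. In the range over 10 CPM, 12 of 20 members were higher and 3 lower, where 40.6% and 39.1% of all genes of that level were. The range is set by the mean over all libraries, treated ones included, so a rise itself can place a member there. Scaling moved the split of all members: by library totals alone the median of all genes shifted from −0.06 to −0.48, and 39 members were higher and 82 lower.

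**Figure D1:**
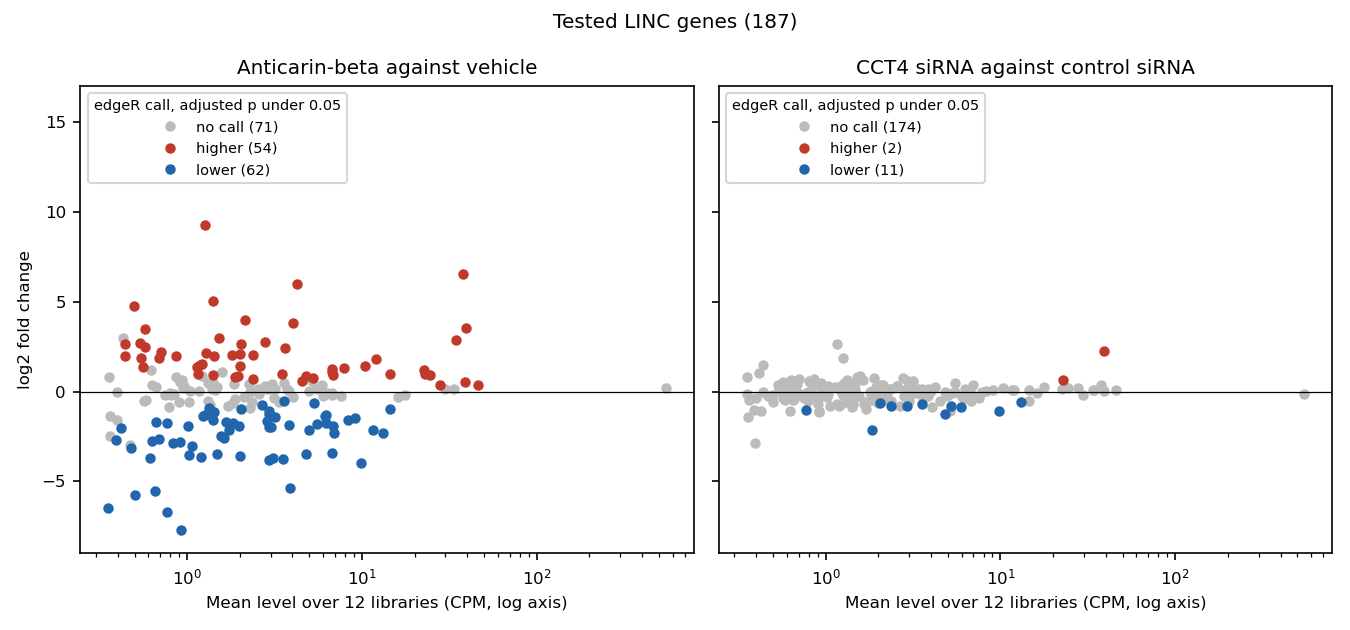
Each point is 1 of 187 tested LINC genes, placed by its mean level over 12 libraries (CPM, log axis) and its log2 fold change, with anticarin-beta against vehicle on the left and CCT4 siRNA against control siRNA on the right. Red and blue mark the genes called higher (54 and 2) and lower (62 and 11); a fold change of a gene with 0 counts in a group depends on the prior count of the fit.

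The highest fitted fold change was that of LINC01173, a lincRNA of chromosome 2 (234682668 to 234717764, plus strand) with no exon overlap. It had 0 counts in the 3 vehicle libraries and 4.03, 5.64 and 5.44 CPM with anticarin-beta. All treated libraries lay above all others, since it also had 0 counts with control siRNA and a single count in the libraries labelled CCT4 siRNA. Against a floor of 3 counts over the vehicle group it was at least 90.4-fold higher, a description, since the gene met the rule for members only through the treated libraries. LINC00968 was 1.17, 1.87 and 1.66 CPM with vehicle and 145, 142 and 153 CPM with anticarin-beta. This RNA thereby moved from the low range to the most abundant members of the treated cells, 93.8-fold higher (log2 fold change 6.55 ± 0.16, adjusted p = 6.8e-12). It was 0.979 ± 0.154 CPM with control siRNA and 1.24 ± 0.282 CPM with CCT4 siRNA (SD, n = 3 each).

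LINC00152 (now CYTOR, an RNA studied in many tumour types) was 9.91, 13.8 and 13.2 CPM with vehicle and 79.1, 88.4 and 98.1 CPM with anticarin-beta. The groups did not overlap, and the rise was 7.21-fold (log2 fold change 2.85 ± 0.14, adjusted p = 1.4e-09). Its siRNA groups stayed at 17.8 ± 1.58 and 18.7 ± 1.82 CPM (SD, n = 3 each). The gene has a near-identical copy on the same chromosome and an exon overlap on its own strand, so reads may be shared. LINC00943 and LINC00944 overlap each other on opposite strands of chromosome 12 outside their exons. LINC00943 was 0.426, 0.362 and 0.267 CPM with vehicle and 5.37, 5.64 and 6.28 CPM with anticarin-beta, 16-fold higher. LINC00944 went from 1.49, 1.39 and 0.962 to 5.45, 6.93 and 8.62 CPM (log2 fold change 2.45 ± 0.24). Both rose in every treated library.

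RNAs near the detection limit followed among the highest. LINC00973 had 2 counts over the vehicle group and 100 with anticarin-beta, a ratio of 77.9 with a 95% counting interval from 21.0 to 652; its fitted log2 fold change of 6.00 became 8.43 without vehicle replicate 1. The vehicle group stood apart here, as LINC00973 reached 6.35 ± 0.942 CPM with control siRNA and 7.64 ± 1.48 CPM with CCT4 siRNA (SD, n = 3 each). LINC00862, downstream of ZNF281, had 2 and 42 counts, a ratio of 32.7 (8.51 to 279), and its fitted log2 fold change of 4.75 became 7.20 without vehicle replicate 2. LINC00862, like LINC00824, met the rule only through the treated libraries. LINC00824 (5.06 ± 0.49), LINC00689 (3.79 ± 0.30), LINC01619 (3.46 ± 0.46) and LINC00880 (2.99 ± 0.61) were the other members among the 10 highest by log2 fold change. The last 3 overlap exons of other genes, LINC01619 those of BTG1, which was itself higher (1.72 ± 0.09). For LINC00880 the vehicle replicates disagreed at 0, 0.0603 and 0.588 CPM, and its log2 fold change was 2.40 without vehicle replicate 1 and 5.63 without vehicle replicate 3.

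**Figure D2:**
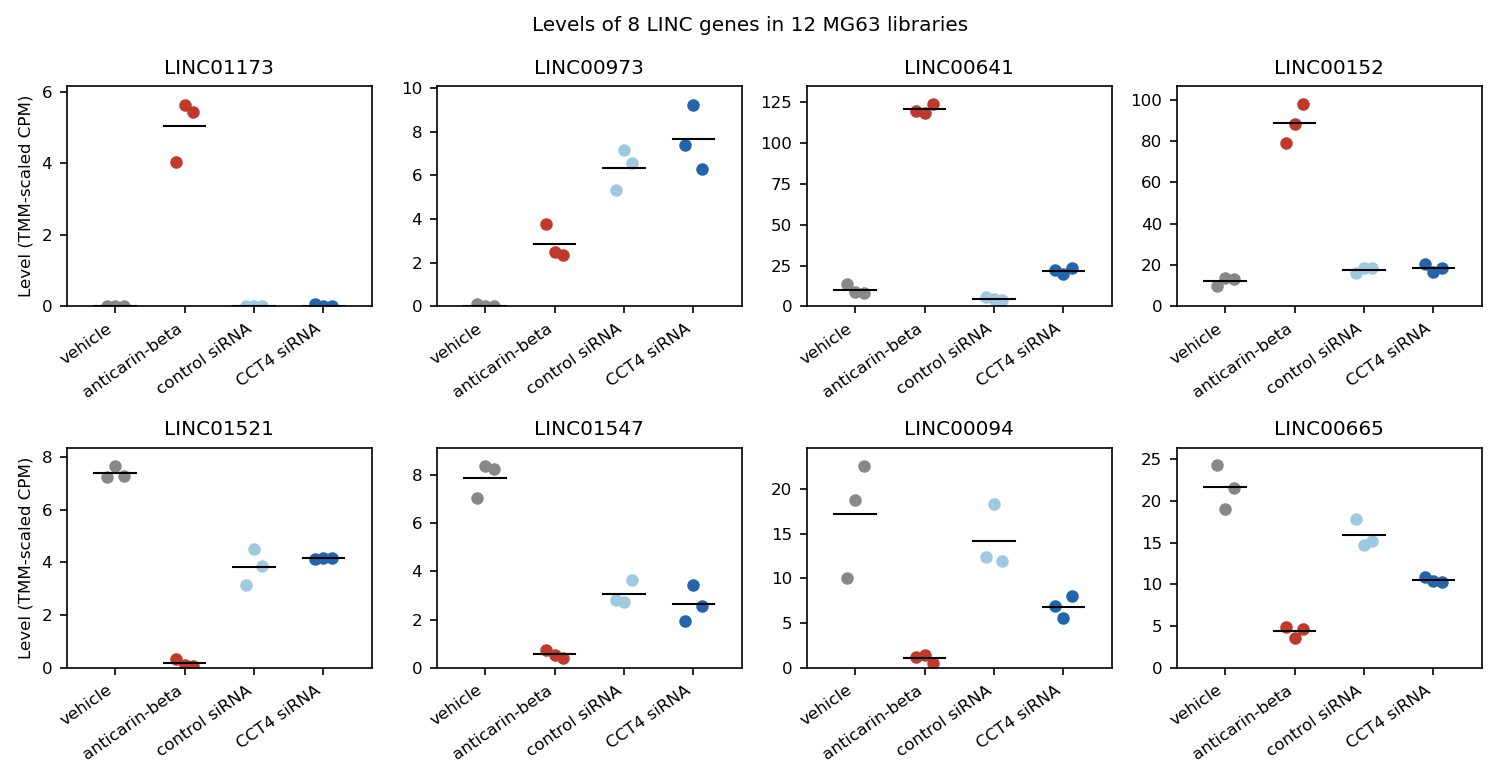
Levels (TMM-scaled CPM) of 8 LINC genes in the 12 libraries, with 1 point per library, a bar at the group mean and a separate axis from 0 for each gene. LINC01173, LINC00641 and LINC00152 are high in the 3 anticarin-beta libraries, LINC00973 is near 0 only with vehicle, and LINC01521, LINC01547, LINC00094 and LINC00665 are lowest with anticarin-beta.

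Among the members that fell, LINC00471 had 2.18, 1.15 and 1.76 CPM with vehicle and 0 counts in all anticarin-beta libraries, at least 19.9-fold lower against 3 counts over the group (adjusted p = 3.6e-05). LINC01144, LINC00898, LINC01012 and LINC00525 also had 0 counts with anticarin-beta and were at least 9.84-, 8.13-, 4.92- and 4.28-fold lower. LINC01521 was 7.25, 7.66 and 7.27 CPM with vehicle and 0.335, 0.0924 and 0.0837 CPM with anticarin-beta. All treated libraries lay far below the lowest vehicle library, a 40.9-fold decrease (log2 fold change −5.35 ± 0.31, adjusted p = 7.7e-09; −6.28 without anticarin-beta replicate 1). With siRNA it stayed at 3.84 ± 0.682 and 4.16 ± 0.0329 CPM (SD, n = 3 each). LINC01547 went from 7.03, 8.38 and 8.23 to 0.755, 0.555 and 0.418 CPM, again without overlap (−3.75 ± 0.28, adjusted p = 6.6e-08). LINC00094 (now BRD3OS, antisense to the bromodomain gene BRD3) went from 10.1, 18.8 and 22.6 to 1.17, 1.48 and 0.586 CPM. It fell by 3.99 ± 0.38 on the log2 scale, and BRD3, whose exons it overlaps on the opposite strand, was also lower (−2.26 ± 0.10).

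LINC00887 went from 1.86, 1.75 and 2.67 to 0.168, 0.0924 and 0.167 CPM (log2 fold change −3.79 ± 0.41). LINC01232, which overlaps TM9SF2 on the opposite strand, went from 7.57, 4.89 and 8.23 to 0.419, 0.647 and 0.753 CPM (−3.49 ± 0.48), while TM9SF2 rose by 0.18 ± 0.06. Both LINC genes were lower in each treated library than in any vehicle library. LINC01605 (−3.67 ± 0.58), LINC01137 (−3.56 ± 0.47) and LINC01224 (−3.55 ± 0.65) fell to a level of a few counts. The fitted size of these falls therefore moved with single libraries: LINC01605 was −5.24 without anticarin-beta replicate 3, LINC01137 −4.82 without that replicate and LINC01224 −5.11 without anticarin-beta replicate 1. Each of these genes was still called lower in all 12 omissions of 1 library. LINC01011, inside NQO2 on the same strand, kept 3 counts of 62, a ratio of 13.3 (95% counting interval 4.33 to 66.1), and its fitted log2 fold change of −3.61 became −4.55 without anticarin-beta replicate 2. NQO2, whose exons it overlaps, was itself lower (−2.74 ± 0.43). When each of the 12 libraries was left out in turn, 44 of the 54 higher and 56 of the 62 lower members were called every time.

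Members were sorted by their position next to other genes, and the counts below stand beside 34.9% higher and 38% lower among all genes tested. Of 14 members that start within 1 kb of a protein-coding gene on the opposite strand, with no exon overlap (divergent genes), 0 were higher and 10 lower (median log2 fold change −1.81). Of 18 tested members that start within 10 kb downstream of a protein-coding gene on its strand, 4 were higher and 10 lower (median −0.91). The 44 members with an exon overlap on the opposite strand had 8 higher and 16 lower (−0.23), the 30 with one on the same strand 12 and 5 (0.16), and the 79 at none of these positions 30 and 20 (0.30). These classes were compared only by their counts, so nothing here is a test of position.

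**Figure D3:**
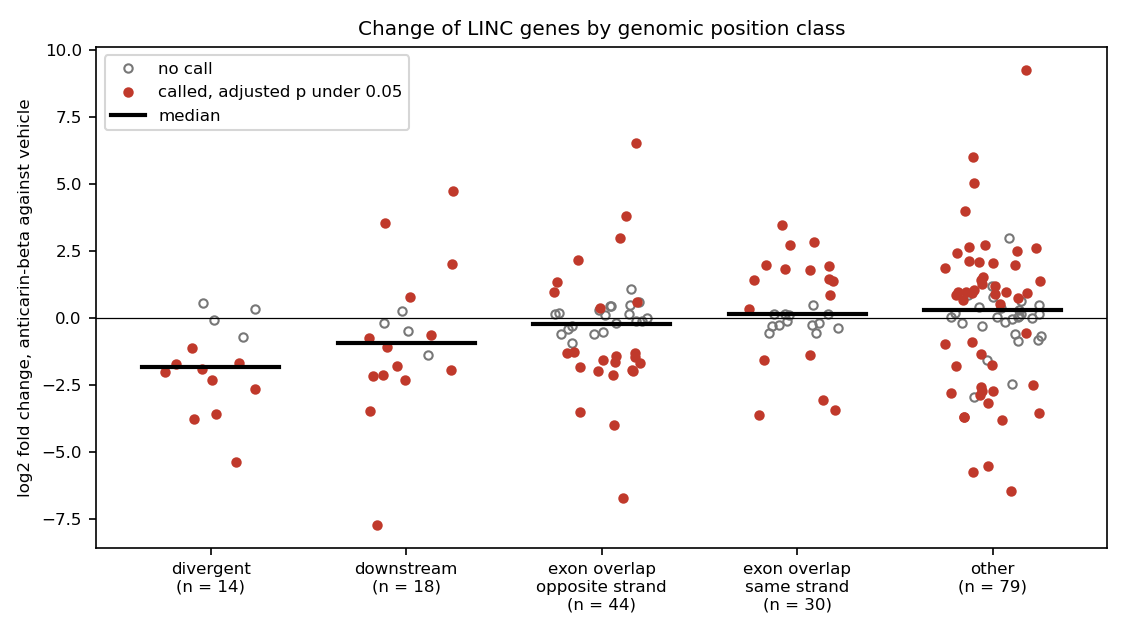
Log2 fold changes with anticarin-beta of 185 tested LINC genes in 5 classes of genomic position, with filled points for genes called by edgeR and a bar at the median. The median is −1.81 for divergent genes and 0.30 for the class of other positions, where 30 genes were called higher and 20 lower.

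With exon-overlapping genes counted too, 24 members have a divergent start; 0 were higher and 12 lower, and the median was −1.03. In this set edgeR found 0 higher members at an unadjusted p under 0.05 as well, and DESeq2 and limma-voom also called 0. The 161 other members had 54 higher and 49 lower. The same split was then made in other genes: of 560 other long non-coding genes with a divergent start 24.6% were higher and 39.5% lower, and of 1497 without one 37.1% and 25.8%. Among protein-coding genes it was 27.0% and 47.3% of 2275 with a divergent start, against 36.9% and 39.7% of 11525. Divergent members were also CpG-rich: 21 of the 24 had at least 10 CpG in the first 200 transcribed bases, and of these 0 were higher and 10 lower. Of 54 members with as many CpG but no divergent start, 14 were higher and 18 lower, and of 106 with neither, 40 and 30. Of 820 other long non-coding genes with at least 10 CpG, 23.8% were higher and 41.0% lower. Of 1235 with fewer CpG, it was 40.2% and 21.9%. For protein-coding genes it was 34.7% and 42.2% of 9746 with at least 10 CpG, against 36.6% and 37.6% of 4022. Divergent start and CpG content move together, and their parts in the result were not tested. Members that rose had a median gene span of 35.2 kb and 2.5 CpG in the first 200 bases. Those that fell spanned 9.76 kb with 9 CpG, and those not called 20.7 kb with 9 CpG. These medians were computed for members only, so whether other genes show the same was not tested.

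A divergent LINC gene did not always follow its partner. LINC01521 shares its start region with PATZ1, a zinc-finger transcription factor that fell by 4.68 ± 0.17 on the log2 scale, nearly as far as the LINC gene. FAM207A, across from LINC01547, fell by 1.98 ± 0.15, C1orf174 across from LINC01134 (−1.90 ± 0.27) by 1.22 ± 0.10, ZNF41 across from LINC01560 (−1.67 ± 0.38) by 1.32 ± 0.17, and PURA across from LINC01024 (−1.13 ± 0.28) by 0.25 ± 0.10. In 3 pairs the partner rose. LINC00205 was 9.59, 12.5 and 11.2 CPM with vehicle and 1.43, 3.33 and 1.92 CPM with anticarin-beta, while POFUT2, which adds fucose to secreted proteins, rose by 1.38 ± 0.07. LINC00909 went from 8.74, 8.93 and 9.68 to 2.10, 3.60 and 2.59 CPM, and ZNF407 rose by 1.41 ± 0.10. LINC01137 went from 1.39, 1.57 and 1.39 to 0.0839, 0 and 0.251 CPM, and ZC3H12A, an RNase that degrades inflammatory messages, rose by 1.02 ± 0.07. In each of these 3 LINC genes no treated library reached the lowest vehicle library. PRDM16 across from LINC00982 (−0.27 ± 0.19) and RAB2A across from LINC01301 (0.02 ± 0.05) were not called. LINC00982 itself was −2.65 ± 0.57, or −3.65 without anticarin-beta replicate 2. LINC01301 was −2.01 ± 0.77; it missed the threshold when vehicle replicate 2 (−1.97) or 3 (−1.93) or anticarin-beta replicate 1 (−1.45) or 2 (−2.07) was omitted, and its value was −2.94 without anticarin-beta replicate 3.

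**Figure D4:**
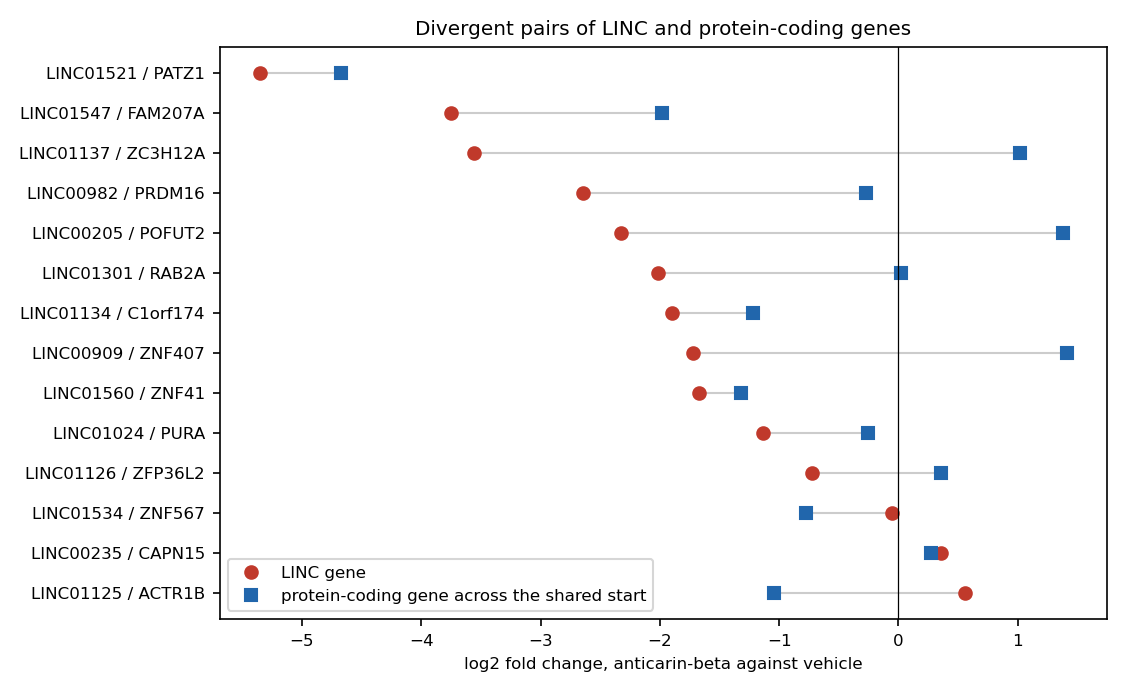
Log2 fold changes with anticarin-beta of 14 divergent LINC genes (circles) and of the protein-coding genes across the start (squares), joined by a line and ordered by the LINC gene. LINC01521 and PATZ1 lie close together at −5.35 and −4.68, whereas LINC00205, LINC00909 and LINC01137 lie below 0 and their partners above it.

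Over all positions, 146 members had a tested nearest protein-coding gene, and across these pairs the 2 log2 fold changes with anticarin-beta correlated weakly (Pearson 0.26, Spearman 0.26; genes are not independent replicates, and both values come from the same libraries). Of 73 pairs with both genes called, 47 had the same sign. Without members whose exons overlap those of any other gene, Pearson's r was 0.16 over 90 pairs and 29 of 47 pairs had the same sign. The overlapped gene was often not the paired neighbour, which for LINC00662 lay 1411381 bases away. Sharing of reads within pairs was therefore not what this omission removed alone. LINC00641 and LINC00665 show the downstream case. LINC00641 starts 2236 bases past HNRNPC, a gene for an RNA-binding protein, which rose by 1.12 ± 0.11, far less than the LINC gene. LINC00665 starts 2735 bases past ZFP14, which fell by 3.96 ± 0.27, further than the LINC gene.

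The promoter windows were searched on both strands for 7 motifs. AP-1 (TGANTCA) was in 20 of the 151 windows, 13.2%, and in 7.76% of all 27305 promoters of the table. Windows of members that rose held it in 8 of 36 cases and those of members that fell in 6 of 53. The site of LINC01173 starts 103 bases before the RefSeq start and those of LINC00152 19 and 9 bases before it, as printed above. The NF-kB motif was in 27.2% of member windows and 25.1% of all, in 3 of 36 that rose and 18 of 53 that fell. EGR (GCGNGGGCG) was in 11.3% and 9.28%, the TATA box (TATAAA) in 11.3% and 12.0%, the E-box (CACGTG) in 8.61% and 7.43%, CRE (TGACGTCA) in 1.32% and 1.98% and the heat shock element in 1.32% and 0.487%. A match is a description of these letters and not of binding. Windows were found for 36 of the 54 members that rose and 53 of the 62 that fell, so coverage was uneven. The Methods call these windows too few for a check of CpG content. Shares among all risen and all fallen genes were not computed, and the members that rose and fell differed in CpG content, as given above. The splits by direction are therefore descriptions only, and a link between motif and direction was not tested.

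Of the 10 members with the highest mean level, 7 were called higher with anticarin-beta and 3 were not called. Of all genes over 10 CPM, 40.6% were higher and 39.1% lower. The mean covers the treated libraries too, so a rise itself lifts the rank of a member, as for LINC00968. The count is therefore only a description. The 3 members over 10 CPM that were lower rank after these 10: LINC00665 (−2.30), LINC00116 (−2.13) and LINC01615 (−0.97). NORAD, which guards chromosome number by holding PUMILIO proteins, was 381, 483 and 527 CPM with vehicle and 546, 523 and 513 CPM with anticarin-beta. The groups overlapped and the change of 0.19 ± 0.10 was not called. The call depended on the setting: NORAD was called higher with RLE scaling (0.25), with DESeq2 (0.25) and without vehicle replicate 3 (0.29), and lower with library totals (−0.23, adjusted p = 0.041). LINC00839 went from 39.1, 33.1 and 35.7 to 52.0, 50.7 and 53.9 CPM, a change of 0.54 ± 0.09 (adjusted p = 0.00020) that was not called with library totals (0.12). LINC00969 (now MUC20-OT1, overlapping MUC20 on its strand) had a call of 0.34 ± 0.12 with overlapping groups. It missed the threshold on omission of vehicle replicate 1 (0.30) or 2 (0.23) or of anticarin-beta replicate 2 (0.26) or 3 (0.32), and the value was −0.08 with library totals. LINC00963 (0.15 ± 0.16) and LINC01578 (now CHASERR, 0.16 ± 0.12) were not called; with library totals they were −0.26 and −0.25.

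Some members are listed as sources of micropeptides, short proteins translated from RNAs once thought non-coding. Of 10 such genes, 7 were members; 2 were higher with anticarin-beta, 4 lower and 1 not called, where 34.9% of all genes were higher and 38% lower (median −1.77, against −0.06 for all genes). LINC00116 (now MTLN, whose peptide sits in the inner mitochondrial membrane and aids respiration) went from 15.2, 17.5 and 14.6 to 4.53, 2.96 and 3.26 CPM, a non-overlapping fall of 2.13 ± 0.16. LINC00961 (now SPAAR, whose peptide restrains amino acid signalling to mTORC1 at the lysosome) went from 9.64, 11.5 and 14.0 to 3.27, 2.77 and 1.84 CPM (−2.15 ± 0.21). LINC00467 (−1.77 ± 0.33, or −2.36 without anticarin-beta replicate 2) and LINC00665 (−2.30 ± 0.14) also fell. LINC00998 (now SMIM30, a small membrane protein) rose from 20.1, 19.8 and 19.2 to 41.0, 32.7 and 37.9 CPM (0.92 ± 0.10). LINC01420 (now NBDY, a peptide of the mRNA decapping complex, overlapping SPIN3) rose from 24.6, 25.4 and 27.2 to 33.2, 34.0 and 34.0 CPM (0.39 ± 0.09), but was −0.03 with library totals. LINC00493 (now SMIM26) was −0.30 ± 0.13 and not called; it was called lower with upper-quartile scaling (−0.41), with library totals (−0.72) and without vehicle replicate 3 (−0.42) or anticarin-beta replicate 3 (−0.43).

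Of 23 LINC genes often studied in cancer cells, 15 were members. With anticarin-beta 4 were higher, 5 lower and 6 not called (median −0.10), where 73% of all genes were called, 34.9% higher and 38% lower. Beside LINC00968 and LINC00152, LINC00707 (1.40 ± 0.19) and LINC01296 (1.80 ± 0.15) rose; LINC01296 is now annotated as the pseudogene DUXAP10, one of several similar copies, and its count is uncertain. LINC00346 (downstream of ANKRD10) went from 2.02, 2.71 and 2.25 to 0.0839, 0.185 and 0.335 CPM (−3.47 ± 0.40, or −4.08 without anticarin-beta replicate 3). ANKRD10 rose by 0.58 ± 0.06, so gene and downstream RNA went opposite ways. LINC00511 (−1.98 ± 0.35), LINC00662 (−1.32 ± 0.18), LINC01116 (−1.84 ± 0.29) and LINC00704 (now MANCR, −1.29 ± 0.43) fell, all with an exon overlap. LINC00704 missed the threshold when vehicle replicate 2 (−0.997) or anticarin-beta replicate 1 (−0.951) was omitted. LINC01133 (−0.17 ± 0.13), LINC00941 (−0.10 ± 0.17), LINC00472 (0.50 ± 0.47) and LINC01503 (−1.58 ± 0.74) were not called. With library totals LINC01133 (−0.59) and LINC00941 (−0.51) were called lower. LINC01503 was called lower with each experiment alone (−1.58), library totals (−1.98), the replicate block (−1.57) and without control siRNA replicate 1 or 3 (−1.58 each). Among 29 tested long non-coding RNAs without a LINC number, such as host genes of small nucleolar RNAs, 11 were higher and 5 lower. Of 21 genes of the nuclear exosome and its adaptors 10 were higher and 10 lower, and of 14 Integrator subunits 2 were higher and 8 lower. The shares over all genes tested were 34.9% higher and 38% lower.

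In the siRNA experiment few members changed. With CCT4 siRNA against control siRNA, 2 of 187 were higher and 11 lower, or 6.95% of the members, where 19.7% of all genes were called, 10.7% higher and 9.04% lower. By level, the share called was 2.04% of members beside 6.61% of all genes under 1 CPM, 7.63% beside 12.6% from 1 to 10 CPM and 15% beside 26.9% over 10 CPM; these shares were not tested against each other. The median log2 fold change was −0.09 for members and 0.01 for all genes. The largest rise among called members was that of LINC00641, with 5.51, 4.50 and 3.88 CPM under control siRNA and 22.2, 19.8 and 23.3 CPM in the libraries labelled CCT4 siRNA. These groups were far apart, a 4.70-fold difference (log2 fold change 2.23 ± 0.18, adjusted p = 8.3e-06). The same RNA went from 13.4, 8.93 and 8.39 CPM with vehicle to 119.8, 119 and 124 CPM with anticarin-beta, 11.8-fold higher (3.56 ± 0.17, adjusted p = 1.1e-09). LINC01128, overlapping LINC00115 on the opposite strand, was the other member higher in both. It was 18.1, 15.8 and 17.8 against 28.5, 27.0 and 25.5 CPM with siRNA (0.65 ± 0.10, adjusted p = 0.00096), and 15.7 ± 1.71 against 31.3 ± 1.55 CPM with anticarin-beta (SD, n = 3 each; 0.99 ± 0.10).

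Among called members, LINC00173 had the largest fall in the libraries labelled CCT4 siRNA, from 4.36, 4.94 and 3.40 to 1.05, 0.949 and 0.836 CPM. Each of the latter lay below every control siRNA library (log2 fold change −2.15 ± 0.31, adjusted p = 0.00057), and with anticarin-beta it was not called (−0.65 ± 0.36). LINC00665 went from 17.9, 14.8 and 15.1 to 10.9, 10.4 and 10.4 CPM (−0.59 ± 0.13), and LINC00886 from 5.06 ± 0.619 to 2.91 ± 0.0887 CPM (SD, n = 3 each; −0.79 ± 0.16). These 3 were the lower members still called whichever library was left out, as were both higher ones. The other 8 lost their call without at least 1 library of the siRNA experiment: LINC01232 (−1.27 ± 0.36), LINC00094 (−1.06 ± 0.29), LINC01144 (−1.03 ± 0.26), LINC00235 (−0.83 ± 0.22), LINC01311 (−0.81 ± 0.24), LINC00176 (−0.78 ± 0.23), LINC00884 (−0.67 ± 0.19) and LINC00950 (−0.65 ± 0.21). LINC00950 was just past the threshold, with an adjusted p of 0.049. Without 1 library of the siRNA experiment, 5 to 7 members were lower in place of 11. Leaving out vehicle replicate 1, which is in neither siRNA group, gave 16.

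Micropeptide genes held 1 of these lower members, LINC00665. For the siRNA comparison edgeR called 0 of the 7 higher, with 1 (LINC01420) at an unadjusted p under 0.05, and DESeq2 and limma-voom called 0. Of the 15 cancer-studied members edgeR called 0 in either direction, with LINC01503 alone at an unadjusted p under 0.05, as a decrease, and DESeq2 and limma-voom called 0. LINC01503 had 2 counts against 17, a ratio of 8.24 (95% counting interval 1.96 to 73.5). For the other lists the siRNA comparison gave 1 higher and 2 lower of 29 long non-coding RNAs, 1 and 2 of 21 exosome genes and 1 and 3 of 14 Integrator genes, where 10.7% of all genes were higher and 9.04% lower.

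The change with anticarin-beta differed from that with siRNA in 88 members, 40 with a higher and 48 with a lower value for the compound (a contrast of both responses within 1 fit). This is 47.1% of the members, where 59.9% of all genes differed, 27.5% higher and 32.4% lower. For LINC00641 the response to the compound was larger by 1.32 ± 0.24 (adjusted p = 0.00035), and for LINC00665 it was lower by a further amount (−1.70 ± 0.20, adjusted p = 8.4e-06). LINC00094 (−2.93 ± 0.49) and LINC01232 (−2.23 ± 0.62) fell more with the compound too. For LINC00176 and LINC00950 the difference was −0.31 ± 0.33 and −0.33 ± 0.30 and was not called. That of LINC01128 lay at the threshold (0.35 ± 0.14, adjusted p = 0.0503). It was called with RLE scaling (0.41), DESeq2 (0.41), limma-voom (0.35), a minimum mean of 1 CPM (0.36), and without vehicle replicate 1 (0.44), control siRNA replicate 2 (0.40) or CCT4 siRNA replicate 1 (0.39). In opposite directions went LINC00886, at 4.81 ± 0.590 CPM with vehicle and 8.07 ± 0.991 CPM with anticarin-beta (SD, n = 3 each; 0.74 ± 0.16), and LINC01311, at 1.96 ± 0.201 and 3.16 ± 0.372 CPM (0.69 ± 0.23). Both rose with the compound and fell with siRNA, and the responses differed (by 1.54 ± 0.23 for LINC00886, adjusted p = 7.3e-05, and with adjusted p = 0.0019 for LINC01311). The compound calls of both were lost with library totals (0.32 and 0.27), and that of LINC01311 also without vehicle replicate 2 (0.62) or, in the treated group, replicate 3 (0.59). Of 62 members lower with the compound, edgeR called 6 lower and 0 higher with siRNA. Over all genes tested, 9.04% were lower and 10.7% higher with siRNA, and agreement of the responses was not tested. For the direction higher in these 62, LINC00887 alone had an unadjusted p under 0.05, DESeq2 called 0 and limma-voom 1.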

How the data were processed

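RNA of 12 MG63 libraries was measured by sequencing, and the authors deposited raw read counts per gene, 1 column per library, not normalized and not pooled. The kit was a stranded TruSeq one, per the labels' protocols. The submitters' processing notes name the hg38 build and the tools Subread, featureCounts 1.5.0 and STAR 2.5.2a. How the counting treated strand and reads with several matches, and its annotation release, are not stated in the sources used here.

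Counts were fitted with edgeR 4.0.16 in R 4.3.3 (quasi-likelihood test, two-sided, TMM scaling, filterByExpr on the 4 groups, 1 mean per group over 12 libraries, 8 residual degrees of freedom). P-values were adjusted by Benjamini-Hochberg over 17717 genes, and genes under 0.05 were called. The prior count was 0.125, SE came from the F statistic, and levels are TMM-scaled CPM. Groups with 0 counts were given as bounds against 3 counts over the group and those with 1 to 3 as ratios with 95% counting intervals, which cover counting error only. Replicate pairs differed by more than sampling noise (9.35 to 29.7 chi-square units per degree of freedom). The fit was also run on simulated counts in which few genes changed, unlike in the compound experiment, so that run does not check the scaling.

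Groups came from the labels, positions from GENCODE 29 on GRCh38 and promoters from RefSeq. Too few members had a promoter window (151 of 191) for a check of CpG content there, which is void, so the first 200 transcribed bases were used (99.5% of tested annotated members). Members, gene lists and tests were chosen with earlier results of these data known. Named were the 10 highest and 10 lowest called members per comparison with at least 1 CPM in the higher group and no overlap, up to 5 called in both comparisons per pattern, the 10 most abundant and the micropeptide and cancer lists. Other members were chosen after their values were seen: the divergent genes, members with 0 counts with anticarin-beta, members that met the minimum through 1 group, LINC01615 and LINC00944.

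Results were recomputed with DESeq2 1.42.0 and limma-voom (limma 3.58.1), with library totals, upper quartiles or RLE for scaling, with other filters on low counts, in fits of 1 experiment or with the replicate number as a block, past a 1.5-fold change, at an adjusted p under 0.01, and on omission of each library, of exon-overlapping members and of members under 1 CPM. Splits by divergent start and by CpG were added after seeing the data.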

Additional observations from a re-analysis of the deposited data

How the results depend on the processing

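Of 1889 alternative values of 83 named fold changes, 1760 kept direction and call, 101 lost the call, 21 gained it and 7, of 6 genes, turned direction. With library totals alone LINC00657 was −0.23, LINC00963 −0.26, LINC00969 −0.075, LINC01420 −0.026 and LINC01578 −0.25 with anticarin-beta, beside a shift of all genes to a median of −0.48. With 1 library omitted, LINC00941 ran from −0.18 to 0.036 and LINC00963 from −0.019 to 0.28, both turning without vehicle replicate 1. Without exon-overlapping members, which leaves fewer genes to count, 34 members were higher and 40 lower with anticarin-beta, 1 and 6 with siRNA, and 30 were lower in the difference of responses. For siRNA, 4 members were higher with each experiment fitted alone and 1 past a 1.5-fold threshold. Lower with siRNA were 19 by library totals, 4 with a replicate block, 1 past 1.5-fold, 3 at an adjusted p under 0.01, and 5 to 16 with 1 library omitted; the cause was not tested. Same-numbered libraries correlated between −0.03 and 0.03 in their deviations from the group mean, and differently numbered ones between −0.015 and 0.031. What a number shares is not in the labels, so these values do not decide whether samples were paired. With the replicate number as a block, 51 members were higher and 60 lower with anticarin-beta. Depth limits the 53 members under 1 CPM, where the median SE of the tested ones was 0.59 with anticarin-beta, against 0.13 over 10 CPM.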

Other observations

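Several members lie side by side. LINC01291 and LINC01293, 1840 bases apart on the same strand of chromosome 2, were both higher with anticarin-beta, by 1.28 and 2.63 on the log2 scale. The call of LINC01291 was kept in 9 of 12 omissions of 1 library. LINC00526 and LINC00667 on chromosome 18 overlap on opposite strands and both fell, by −3.05 and −1.57, as did LINC01270 and LINC01271 on chromosome 20, by −1.27 and −1.64. LINC00452 and LINC00565, 3002 bases apart on opposite strands of chromosome 13, went opposite ways, with 2.75 and −0.55. LINC00565 was just past the threshold (adjusted p = 0.046), and its call was kept in 4 of 12 omissions of 1 library. Exons of LINC00667, LINC01270, LINC01271 and LINC01006 overlap those of other genes on the opposite strand and exons of LINC00526 on the same strand, so values of these members are uncertain.

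Some members differed between the control groups of the experiments, which differ in transfection, time and experiment, and these levels were not tested. LINC00342 averaged 12.2 CPM with vehicle and 2.59 CPM with control siRNA, and LINC00961 11.7 and 3.02 CPM. LINC00702 averaged 2.92 and 10.6 CPM, and LINC01006 2.78 and 9.29 CPM. LINC00973 had 2 counts over the vehicle group against 6.35 CPM with control siRNA. These genes were chosen after their values were seen.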
